A study of Sorghum bicolor with 9 samples.

Results

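The sulfate transporters described here are the genes of Sorghum bicolor to which the deposited table gives the protein family label Sulfate_transp and whose raw counts summed to at least 50 over all libraries. They number 10 of the 35281 genes in the table. An 11th gene with the label, Sobic.001G153100, had 0 counts in all 9 libraries and is not a member. Its zeros allow up to 3 counts a library, which is 0.134 to 0.169 CPM (a gene's count scaled to a common library total), with counting error alone considered. RNA sequencing was done on leaves of wild-type BTx623, an inbred grain sorghum whose genome serves as the species' reference, when the plants had 4 leaves. Control plants grew under normal conditions, moderate plants in saline-alkali soil of 3‰ salt and pH 8.1, and severe plants in saline-alkali soil of 5‰ salt and pH 8.1, with 3 biological replicates in each group. These salt contents are those of the sample titles; a further label of these samples writes percent instead, which would be 10 times higher. The sources used here do not give the control soil's salt and pH, the time in the soil or the number of plants behind a library. Positions below are those of the deposited table, for which the sources used here name no genome build.

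Sulfate transporters are membrane proteins that move sulfate across the plasma membrane, the chloroplast envelope and the vacuole membrane. In Arabidopsis, members of the family take up sulfate in roots, load and unload it in the veins, bring it into plastids and release it from vacuoles, and genes of sulfate uptake are known to be induced when sulfur runs short. In leaves the imported sulfate is activated and reduced in the chloroplast to sulfide, from which cysteine is made, and cysteine in turn feeds glutathione and methionine. The same domain is found in molybdate transporters, and in rice a protein of the family distributes phosphate. The table gives no role, substrate or membrane for any of the 10 genes, so they are called by their locus names here.

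All 10 genes were tested in a fit across 22356 genes, although 4 of them fell short of the low-count filter's 0.487 CPM in at least 1 library. A library-wide scaling (TMM) was applied before levels were compared, and the levels below are normalised CPM. A gene is said to have risen or fallen, or to be called, where edgeR's quasi-likelihood test gave a Benjamini-Hochberg adjusted p under 0.05 over all genes tested. The moderate and severe comparisons with control use the same 3 control libraries, so they are not independent of each other. In RNA from whole leaves, fewer cells of a type and less RNA per cell cannot be told apart.

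The libraries held 17792497 to 22449989 assigned reads each. Severe libraries stood apart on the first principal component, at 152 to 238 against -116 to -68.0 in all other libraries, and their replicates differed most, with a biological coefficient of variation of 24.7% in control, 26.3% in moderate and 60.8% in severe. The normalisation factor was 0.512 in severe replicate 1 and 0.858 and 0.973 in the other severe libraries, and results that rest on it are given without it as well. Labels for chlorophyll a-b binding proteins, the small subunit of Rubisco and phosphoenolpyruvate carboxylase are carried by no gene of the table, so the leaf label was not checked against marker genes here.

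In severe leaves sulfate transporters changed in both directions against control leaves. Of the 10 genes 4 rose and 6 fell, while 66.5% of all tested genes were called in that comparison, 31.6% as higher and 34.9% as lower. Among those that rose, Sobic.001G244500 met the low-count filter only through the severe libraries, and its call was lost without any 1 control library or without severe replicate 1, when 3 rose and 6 fell. The fits that left out 1 of those libraries called 6380 to 7206 genes as higher and 6898 to 7956 as lower, with 22995 to 23099 tested. With total counts as the only scaling, 2 rose and 6 fell, beside 5497 higher and 7888 lower of all 22356 genes tested. The median absolute log2 change was 3.27 over the 10 genes and 1.58 over all genes tested. In moderate leaves 2 rose, 1 fell and 7 were not called, against 17.1% of all tested genes called, 8.94% as higher and 8.17% as lower, with median absolute log2 changes of 1.17 over the 10 genes and 0.61 over all. Between severe and moderate leaves 3 were higher and 6 lower in severe, where 63.2% of all tested genes were called, 29.6% as higher and 33.6% as lower. The 3 include Sobic.001G244500, tested only through its severe libraries, and Sobic.001G496800, whose call was lost with total-count scaling. Among the 6, the call of Sobic.002G143500 was lost without any 1 moderate library. Severe and control libraries did not overlap for any of the 10 genes, as for 72.1% of all tested genes (32.8% higher, 39.3% lower), and severe and moderate libraries did not overlap for 9, as for 69.6% of all (30.8% higher, 38.8% lower). Both of these counts, and both medians over the 10 genes, include Sobic.001G244500. Its moderate log2 change, -3.29, rests on 2 counts against 17 in control. The lists are counted and not tested as sets, and nothing particular to the family is drawn from these shares or medians.

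**Figure D1:**
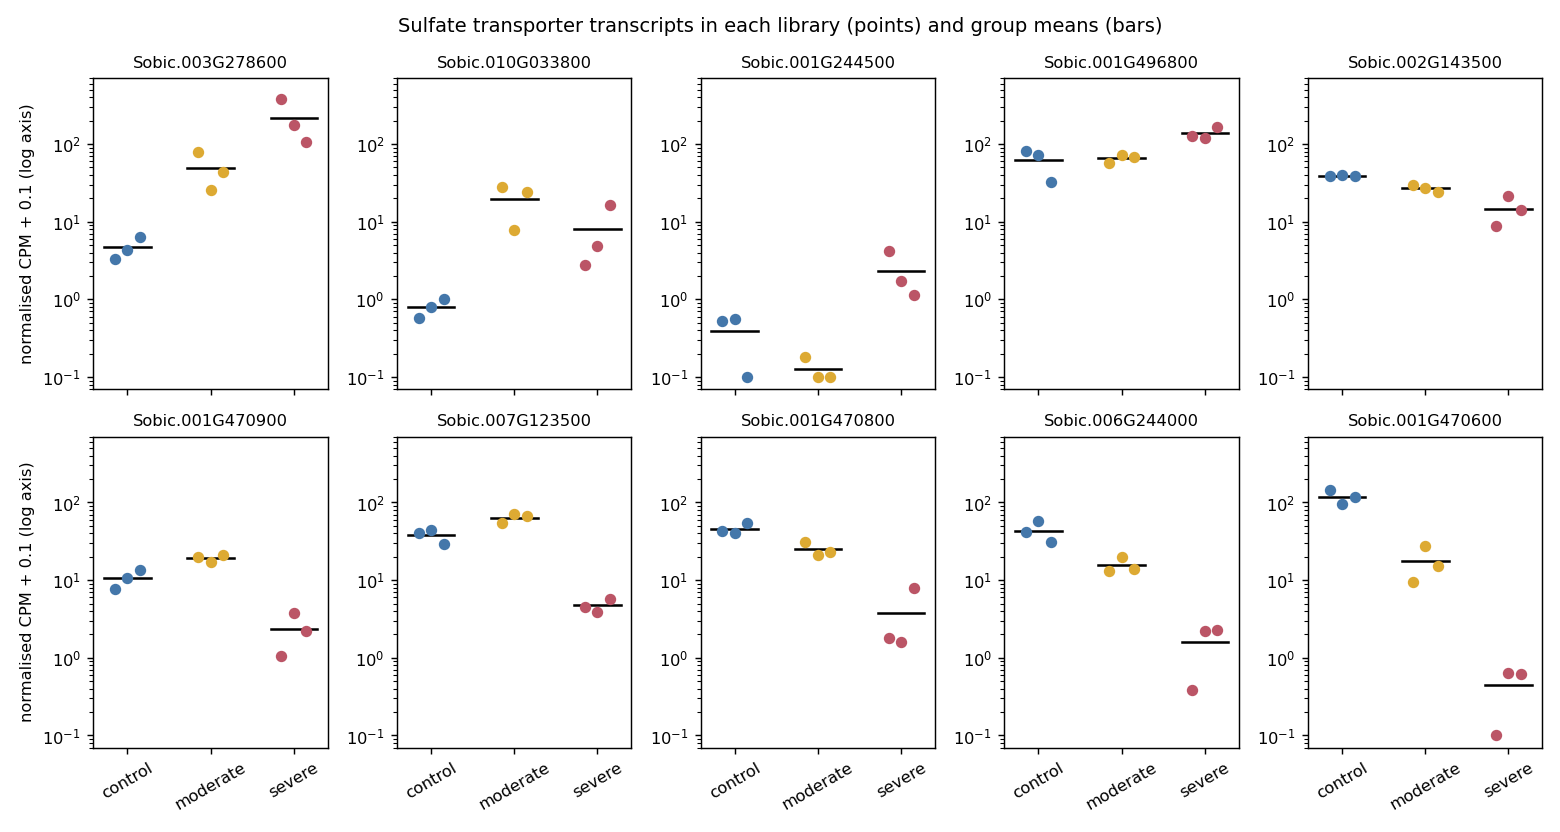
Normalised CPM plus 0.1, on a log axis, of each sulfate transporter in the control, moderate and severe libraries; points are single libraries and bars are group means of 3. Panels run from the largest rise in severe leaves against control to the largest fall, the first 4 being the genes that rose, and end with Sobic.001G470600 at 0 to 0.534 CPM in severe libraries.

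Sobic.003G278600 (chromosome 3, 61460901 to 61468176, plus strand) had the largest rise of the family in severe leaves. It read 3.23, 4.21 and 6.32 CPM in control replicates 1 to 3, 78.6, 25.2 and 44.0 CPM in moderate and 378, 174 and 106 CPM in severe. Every moderate library was above every control library, and every severe library above every moderate one. The gene rose in moderate leaves by 3.42 on the log2 scale (SE 0.92, edgeR adjusted p = 0.00632), with means of 49.3 ± 27.1 CPM in moderate and 4.59 ± 1.58 CPM in control (SD, n = 3 each). It rose further in severe leaves, by 2.15 (SE 0.73, edgeR adjusted p = 0.00739) against moderate, and by 5.58 (SE 1.26, edgeR adjusted p = 1.07e-04) against control, with a mean of 219 ± 141 CPM in severe. Without severe replicate 1 the severe mean was 140.2 CPM and the log2 rise 4.93 against control and 1.504 against moderate, and both calls were kept.

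Sobic.010G033800 (chromosome 10, 2710478 to 2716490, minus strand) was close to silent in control leaves and reached its highest mean in moderate leaves. Control libraries read 0.476, 0.710 and 0.910 CPM, moderate libraries 27.8, 7.70 and 23.7 CPM and severe libraries 2.67, 4.75 and 16.5 CPM. Neither stressed group overlapped control, and the severe and moderate libraries overlapped each other. The log2 rise against control was 4.81 (SE 1.28, edgeR adjusted p = 0.00585) in moderate and 3.51 (SE 1.09, edgeR adjusted p = 0.00313) in severe leaves. Severe and moderate leaves differed by -1.30 (SE 0.75, edgeR adjusted p = 0.118), which did not pass. Severe replicate 3 carried much of the severe mean of 7.99 CPM, which was 3.71 CPM without it. Without that library the rise against control was 2.47 and severe leaves were lower than moderate leaves by a called log2 change of -2.35 (edgeR adjusted p = 0.00919). With limma on log2(FPKM + 1) the severe rise was 0.95 and not called (adjusted p = 0.0585). A gene listed on the opposite strand that overlaps it, Sobic.010G033750, had 9 counts over the 9 libraries.

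Sobic.001G496800 (chromosome 1, 76678203 to 76684214, plus strand) was well expressed in every library. It read 81.2, 72.0 and 32.6 CPM in control, 56.3, 71.9 and 67.9 CPM in moderate and 128, 119 and 164 CPM in severe libraries. Moderate and control libraries overlapped, and all severe libraries lay above both. Its log2 change in moderate leaves was 0.08 (SE 0.34, edgeR adjusted p = 0.900) and not called, and it was -0.23 without control replicate 3. In severe leaves it rose by 1.14 against control (SE 0.42, edgeR adjusted p = 0.0130) and by 1.07 against moderate (SE 0.41, edgeR adjusted p = 0.0188). Neither rise was called with total counts as the only scaling (0.87, adjusted p = 0.0775, and 0.29, adjusted p = 0.529), a scaling that moves the median change of all genes by -0.30 in severe against control and by -0.78 in severe against moderate. The rise against moderate was also not called without moderate replicate 1 (adjusted p = 0.0644) or 3 (adjusted p = 0.0501).

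Sobic.001G244500 (chromosome 1, 25486177 to 25488782, plus strand) was the weakest member, with 110 counts in all. Raw counts were 8, 9 and 0 in control, 2, 0 and 0 in moderate and 43, 30 and 18 in severe libraries. It met the low-count filter only through the severe libraries, so it could be tested only because it was higher there. The moderate log2 change against control, -3.29 (SE 1.61), was not called (edgeR adjusted p = 0.134), and was -0.13 with limma on log2(FPKM + 1). In severe leaves it rose against control by 2.89 on the log2 scale (SE 1.22, edgeR adjusted p = 0.0294), with a mean of 2.25 CPM in severe and 0.293 CPM in control. That call was lost without any 1 control library or without severe replicate 1 (adjusted p = 0.0561 to 0.0956), and with total-count scaling (adjusted p = 0.0520). Without severe replicate 1 the severe mean was 1.32 CPM and the log2 change 2.15, and without control replicate 3, its library at 0, the log2 change was 2.29. The 91 severe counts set against 2 moderate counts came to 81.9 times the moderate level, and counting error alone allowed 22.03 to 687 times at 95% confidence (edgeR adjusted p = 0.00273). Both moderate counts were in moderate replicate 1.

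Of the 6 genes that fell in severe leaves, 3 lie side by side on chromosome 1 within 33975 bases, from 74337027 to 74371001. Sobic.001G470600 (74337027 to 74344195, minus strand) is followed by Sobic.001G470800 (74358530 to 74362956, plus strand) after 14334 bases, and Sobic.001G470900 (74363248 to 74371001, plus strand) begins 291 bases further on. One unlabelled gene, Sobic.001G470700, is listed on the opposite strand inside the span of Sobic.001G470600 and held 76 counts over the 9 libraries, 0 of them in severe. The sources used here do not give whether the counting used strand or how it treated reads that match more than 1 gene, so reads of overlapping or closely similar genes cannot be told apart.

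**Figure D2:**
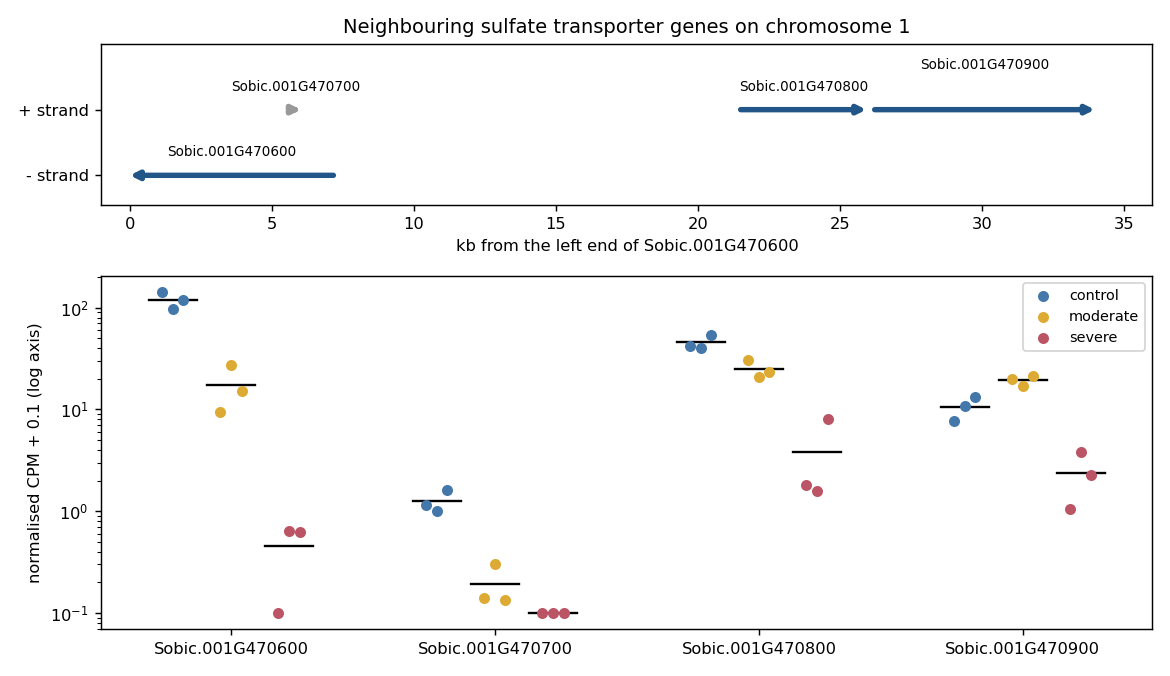
Top, the 4 genes of the chromosome 1 block as arrows in the direction of transcription, by distance in kb from the left end of Sobic.001G470600 (blue, sulfate transporters; grey, the unlabelled gene). Bottom, normalised CPM plus 0.1 on a log axis for each library (points) with group means of 3 (bars): Sobic.001G470600 and Sobic.001G470800 had lower means in moderate than in control leaves, Sobic.001G470900 a higher one, and all had their lowest means in severe leaves.

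Sobic.001G470600 had the largest fall of the family. It read 143, 96.1 and 118 CPM in control, 9.29, 27.5 and 15.1 CPM in moderate and 0, 0.534 and 0.521 CPM in severe libraries. No groups overlapped, and the level was lower in moderate than in control libraries and lowest in severe libraries. In moderate leaves it averaged 17.3 ± 9.29 CPM, against 119 ± 23.6 CPM in control leaves (SD, n = 3 each), a log2 change of -2.78 (SE 0.80, edgeR adjusted p = 0.00987). That call was lost without moderate replicate 3 (-2.67, adjusted p = 0.0559). In severe leaves 19 counts remained over 3 libraries, against 6933 in control and 1493 in moderate. The log2 change was -8.24 (SE 1.68, edgeR adjusted p = 3.43e-05) against control and -5.46 (SE 1.26, edgeR adjusted p = 1.91e-04) against moderate. The severe mean was 0.352 CPM, or 0.527 CPM without severe replicate 1, the library at 0.

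Both of its neighbours also fell in severe leaves. Sobic.001G470800 read 42.4, 40.5 and 54.2 CPM in control, 30.7, 20.7 and 23.2 CPM in moderate and 1.71, 1.495 and 7.93 CPM in severe libraries. Sobic.001G470900 read 7.51, 10.6 and 13.3 CPM in control, 19.7, 17.0 and 21.1 CPM in moderate and 0.952, 3.68 and 2.14 CPM in severe libraries. For neither gene did any of the groups overlap. In moderate leaves neither was called, with log2 changes of -0.88 (SE 0.59, edgeR adjusted p = 0.293) for Sobic.001G470800 and 0.88 (SE 0.47, edgeR adjusted p = 0.173) for Sobic.001G470900. Both were called, in those directions, in a fit of only the moderate and control libraries. Of 16 alternative fits, 2 called Sobic.001G470800 and 3 called Sobic.001G470900, and DESeq2 called neither (DESeq2 adjusted p = 0.251 and 0.0911). In severe leaves Sobic.001G470800 fell by 3.60 (SE 0.96, edgeR adjusted p = 7.03e-04) and Sobic.001G470900 by 2.18 (SE 0.64, edgeR adjusted p = 0.00196) against control. Against moderate, the severe change was -2.73 for Sobic.001G470800 (edgeR adjusted p = 0.00298) and -3.06 for Sobic.001G470900 (edgeR adjusted p = 4.51e-04). The severe mean of Sobic.001G470800 rested largely on severe replicate 3, at 3.71 CPM with it and 1.60 CPM without it, when the log2 change was -4.80 against control and -3.94 against moderate.

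Sobic.007G123500 (chromosome 7, 53008816 to 53014660, plus strand) had its highest levels in moderate and its lowest in severe leaves. It read 40.2, 44.5 and 29.3 CPM in control, 53.6, 70.6 and 67.2 CPM in moderate and 4.48, 3.79 and 5.61 CPM in severe libraries. None of the groups overlapped. The moderate level of 63.8 ± 8.95 CPM stood against 38.0 ± 7.81 CPM in control (SD, n = 3 each), a log2 change of 0.75 (SE 0.29) that missed the threshold with edgeR adjusted p = 0.0584. That change was called in 6 of 16 alternative fits, DESeq2 and limma among them. In severe leaves the gene fell by 3.04 (SE 0.61, edgeR adjusted p = 2.96e-05) against control and by 3.78 (SE 0.71, edgeR adjusted p = 2.26e-05) against moderate, to 4.63 ± 0.92 CPM. The severe replicates of this gene were among the tightest in the family, with a coefficient of variation of 19.9%, where severe values of Sobic.001G470800 varied by 98.4%.

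Sobic.006G244000 (chromosome 6, 58398656 to 58408126, minus strand) had its lowest levels in severe leaves. It read 41.1, 57.1 and 30.6 CPM in control, 13.1, 19.7 and 13.9 CPM in moderate and 0.286, 2.08 and 2.199 CPM in severe libraries, without overlap between groups. The moderate change of -1.46 (SE 0.61, edgeR adjusted p = 0.0722) was not called. It was called in 4 of 16 alternative fits, DESeq2 and limma among them. The severe changes of -4.76 against control (SE 1.099, edgeR adjusted p = 1.46e-04) and -3.29 against moderate (SE 0.88, edgeR adjusted p = 8.88e-04) were called. A gene listed on the opposite strand in its span, Sobic.006G243900, held 2 counts over the 9 libraries.

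Sobic.002G143500 (chromosome 2, 25292347 to 25348804, plus strand) had the smallest severe fall of the 6. Its control libraries lay very close together at 39.2, 39.5 and 38.8 CPM, while moderate libraries read 29.3, 27.0 and 24.3 CPM and severe libraries 8.76, 21.1 and 14.2 CPM. The groups did not overlap. In moderate leaves the log2 change was -0.54 (SE 0.32, edgeR adjusted p = 0.228) and not called, while in severe leaves the gene fell by 1.41 (SE 0.42, edgeR adjusted p = 0.00243) against control. The moderate change was called in 2 of 16 alternative fits. Against moderate the gene fell in severe leaves by 0.87 (SE 0.36, edgeR adjusted p = 0.0266), a call lost without any 1 moderate library, without severe replicate 3 or with only the severe and moderate libraries fitted (adjusted p = 0.0615 to 0.0942). Its listed span of 56458 bases is far longer than that of any other member, at 2606 to 9471 bases.

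**Figure D3:**
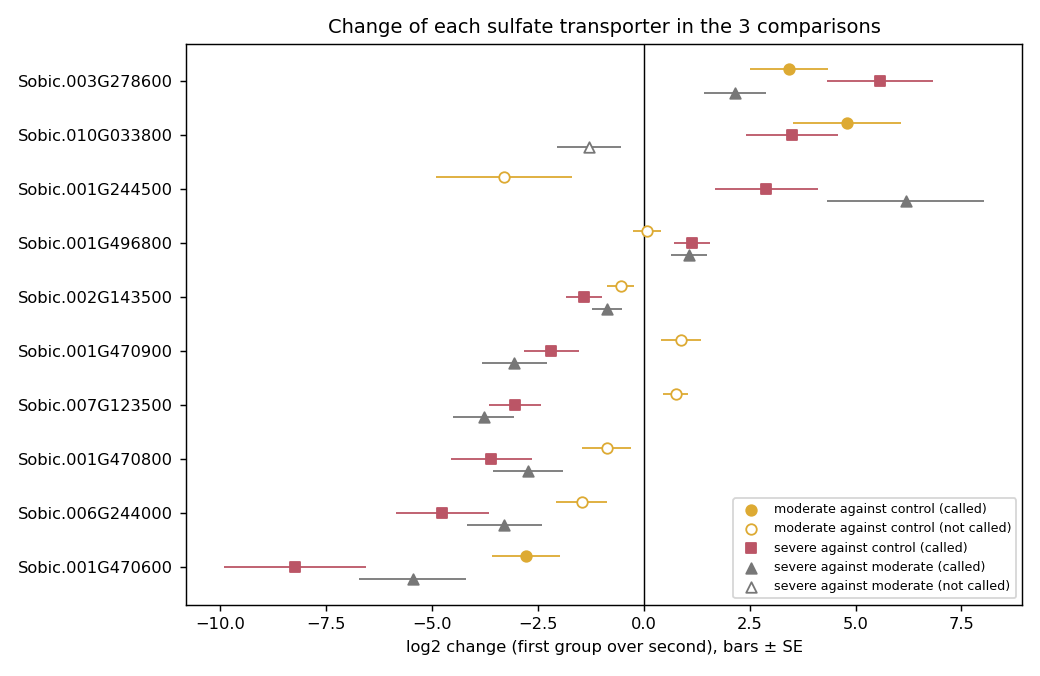
Log2 change of each sulfate transporter (first-named group over second) with its SE in the 3 comparisons named in the legend; filled symbols passed edgeR's test and open ones did not. Genes are ordered by the severe change, from 5.58 in Sobic.003G278600 to -8.24 in Sobic.001G470600, and 3 of the 10 moderate changes are filled.

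The number of moderate calls differed between fits, and the cause was not tested. Of the 10 genes 8 had no overlap between moderate and control libraries, 4 above and 4 below, while 55.9% of all tested genes did not overlap, 27.8% above and 28.1% below. In a fit of only the moderate and control libraries, 8 of 9 genes were called, 4 higher and 4 lower, and Sobic.001G244500 did not meet the filter. That fit called 9503 of all 21109 genes tested in it. With all groups fitted but severe replicate 1 left out, 7 were called in moderate leaves, 4 higher and 3 lower, without severe replicate 3 it was 5, and without severe replicate 2 it stayed at 3. In that order, these fits called 7368 of 22995, 5307 of 22872 and 4478 of 22945 genes tested. With all libraries, DESeq2 called 5 and limma 6, beside 6191 and 4977 of all 22356 genes tested. The authors' deposited table also calls 8 members between moderate and control, 4 higher and 4 lower, at its adjusted p under 0.05, and 10 and 9 in the severe comparisons with control and with moderate. The share of all genes that it calls was not computed here, so nothing particular to the family is drawn from these counts.

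Levels of different genes are compared on the deposited FPKM, the authors' fragments per kilobase of listed gene length, scaled by a library constant. That constant implies 0.444 to 1.46 times the library's total count, so levels are not per total count. The listed length is the genomic span, introns included, for most genes, so genes with long introns appear too low. In control leaves Sobic.001G470600 had the highest mean, 16.1 ± 3.27 FPKM (SD, n = 3), and the highest level in each control library. Its range of 12.9 to 19.4 FPKM overlapped that of 1 other member, Sobic.001G496800, which reached 13.1 FPKM in control replicate 1. It was followed by Sobic.001G470800 at 10.01 ± 1.70 FPKM, Sobic.001G496800 at 9.97 ± 4.13 FPKM, Sobic.007G123500 at 6.29 ± 1.25 FPKM and Sobic.006G244000 at 4.38 ± 1.33 FPKM. Neighbours within these last 4 overlapped in their libraries, and the other 5 members lay below 2 FPKM on average.

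In moderate leaves no single member led. Sobic.007G123500 at 10.6 ± 1.405 FPKM and Sobic.001G496800 at 10.5 ± 1.23 FPKM overlapped, as did every neighbour in the order down to Sobic.006G244000 at 1.59 ± 0.36 FPKM in 8th place. Sobic.001G470600, first in control, stood 7th at 2.33 ± 1.24 FPKM, and Sobic.003G278600, 8th in control, stood 3rd at 6.57 ± 3.66 FPKM.

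In severe leaves a pair of genes made up nearly all of the family's FPKM. Sobic.003G278600 averaged 32.7 ± 24.02 FPKM and Sobic.001G496800 23.6 ± 3.20 FPKM (SD, n = 3), and their libraries overlapped. Without severe replicate 1 their order turned, to 19.2 FPKM for Sobic.003G278600 and 23.1 FPKM for Sobic.001G496800. The next, Sobic.010G033800, averaged 1.32 ± 1.16 FPKM, below the range of both. Sobic.003G278600 took 1.27 ± 0.57% of the summed FPKM of the 10 genes in control leaves, 14.97 ± 7.56% in moderate and 49.5 ± 18.9% in severe. Sobic.001G496800 took 19.7 ± 6.82% in control, 24.6 ± 4.23% in moderate and 41.9 ± 14.2% in severe. Sobic.001G470600 took 32.5 ± 5.42% in control, 5.54 ± 3.25% in moderate and 0.102 ± 0.089% in severe (SD, n = 3 each).

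The 10 genes together held 44.7 to 55.0 FPKM in the control libraries, 40.5 to 45.6 FPKM in moderate and 46.8, 47.9 and 88.3 FPKM in severe, where the highest value was severe replicate 1. Group means were 49.6 ± 5.16 FPKM in control, 43.0 ± 2.54 FPKM in moderate and 61.0 ± 23.7 FPKM in severe (SD, n = 3 each), and the severe mean was 47.3 FPKM without severe replicate 1. These sums depend on the authors' library constant. It implies 0.444 times the total count in severe replicate 1 and 1.37 to 1.46 times in moderate libraries. In normalised CPM the sums averaged 363 ± 37.6 in control, 302 ± 15.7 in moderate and 394 ± 117 in severe (SD, n = 3 each). Severe replicate 1 was again highest in its group, at 529 CPM against 332 and 321 CPM. Sums per total count were not computed, and no order of the groups is drawn from either set of means. No test was made on these sums.

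**Figure D4:**
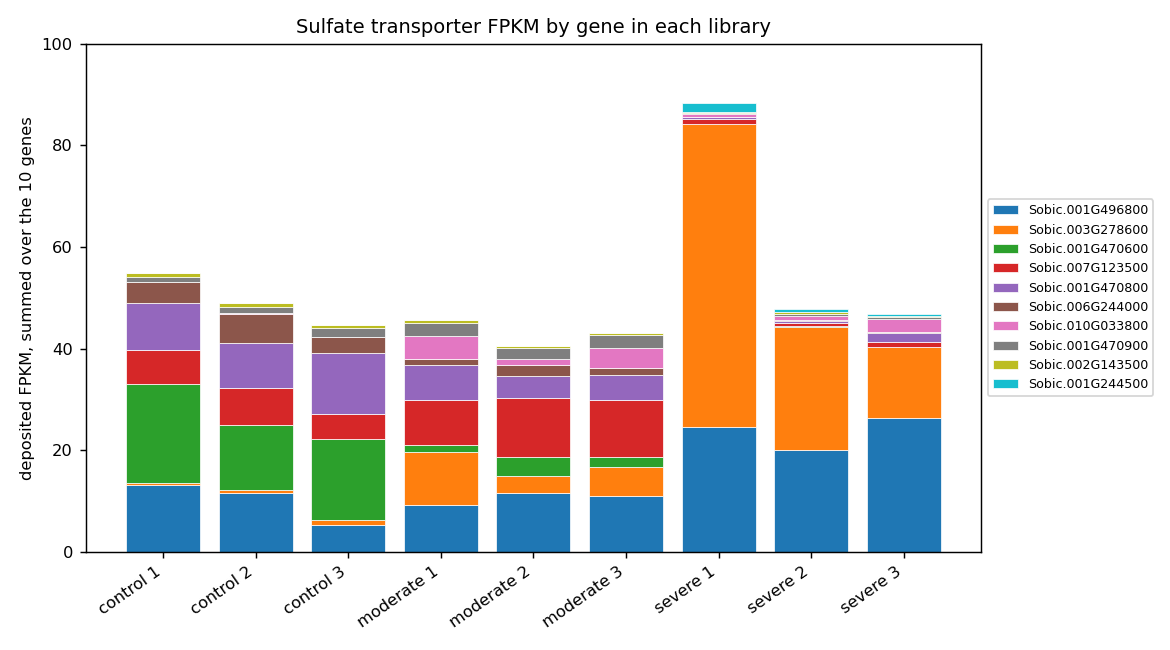
Deposited FPKM of the 10 sulfate transporters stacked for each library, from control through moderate to severe. Sobic.001G470600 (green) fills 26.2 to 35.9% of the control bars and is nearly absent from the severe bars, where Sobic.003G278600 (orange) and Sobic.001G496800 (blue) make up most of each bar, and severe replicate 1 reaches 88.3 FPKM.

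Likeness of pattern was measured as the root mean square difference of centred log2(CPM + 1) profiles over the 9 libraries, among 5757 genes with a family label and a mean of at least 5 CPM. Nearest to Sobic.001G496800, the member with the highest mean FPKM, were Sobic.003G029700 (a protein kinase label, 0.27), Sobic.004G082900 (an AAA ATPase label, 0.27) and Sobic.002G301200 (a serine carboxypeptidase label, 0.27), where the median gene stood at 0.99. Sobic.003G029700, for example, averaged 44.2 CPM in control, 53.7 CPM in moderate and 111 CPM in severe. Nearest to Sobic.001G470600, the member with the largest severe change, were Sobic.009G002500 (a leucine-rich repeat label, 0.44), Sobic.001G206200 (a short-chain dehydrogenase label, 0.44) and Sobic.010G096300 (a Myb label, 0.55), against a median of 2.79. Sobic.001G206200 averaged 3106 CPM in control, 443 CPM in moderate and 48.0 CPM in severe. Among the members themselves the nearest pair by this measure was Sobic.001G244500 and Sobic.001G496800 at 0.51, and the farthest was Sobic.001G470600 and Sobic.003G278600 at 4.84. The farthest pair had the largest opposite changes and the nearest pair included the weakest gene, whose log2(CPM + 1) values have little room to vary.

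Genes that use the transported sulfur further on were taken from a list of enzyme families. Of 15 family labels looked for, from ATP sulfurylase to glutathione synthetase, 3 are carried by genes of the table. They are PALP, the family of cysteine synthase that also holds other amino acid enzymes, Cys_Met_Meta_PP, the family of cystathionine enzymes and methionine gamma-lyase, and Sulfotransfer_1, enzymes that transfer sulfate groups from an activated donor. The labels do not tell which members act on sulfur. In moderate leaves 3 of the 31 tested genes rose and 6 fell, and in severe leaves 9 rose and 15 fell, where 17.1% (moderate) and 66.5% (severe) of all tested genes were called. With total-count scaling the moderate split turned to 4 higher and 0 lower, beside 3707 higher and 704 lower of all 22356 genes tested. That scaling moves the median change of all genes by 0.48, and the cause of the turn was not tested. Without any 1 control or moderate library the moderate calls numbered 1 to 3, and without severe replicate 1 or 3 they numbered 12.

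Of 19 PALP genes tested, 1 rose and 4 fell in moderate leaves, and 4 rose and 9 fell in severe leaves, beside 17.1% and 66.5% of all tested genes called, and the severe share is close to that of all genes. Sobic.001G455600 had the smallest adjusted p in moderate leaves and fell to 18.5, 25.5 and 25.6 CPM in moderate libraries, against 77.8, 63.2 and 64.3 CPM in control (log2 change -1.56, SE 0.41, edgeR adjusted p = 0.00517). Sobic.003G110100 had the smallest in severe leaves, where it fell to 4.86, 6.35 and 2.84 CPM, against 273, 225 and 275 CPM in control (log2 change -5.78, SE 1.06, edgeR adjusted p = 1.19e-05). Neither gene's stressed libraries overlapped control.

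Of 3 Cys_Met_Meta_PP genes tested, 2 fell in moderate leaves, and 1 rose and 2 fell in severe leaves, beside 17.1% and 66.5% of all tested genes called. Both moderate falls were lost without any 1 control or moderate library. Sobic.001G357300 read 82.3, 93.1 and 104 CPM in moderate and 182, 170.2 and 172 CPM in control libraries (log2 change -0.91, SE 0.28, edgeR adjusted p = 0.0155). Its severe log2 change against control was -0.52 (edgeR adjusted p = 0.0410). That call was lost without any 1 control or moderate library, or without severe replicate 3 (edgeR adjusted p = 0.0578 to 0.107). Sobic.010G059200 read 2.57, 5.39 and 2.89 CPM in severe and 31.1, 22.6 and 35.4 CPM in control libraries (log2 change -3.02, SE 0.67, edgeR adjusted p = 9.26e-05). The third, Sobic.001G193600, was singled out after its values were seen. It read 9430, 1795 and 680.5 CPM in severe and 50.3, 43.0 and 42.4 CPM in control libraries, a rise of 6.46 on the log2 scale (SE 1.64, edgeR adjusted p = 4.25e-04) with severe replicate 1 far above the other severe libraries. Without that library the severe mean was 1238 CPM, the log2 change 4.77 and the call was kept.

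Of 20 Sulfotransfer_1 genes 9 were tested, of which 2 rose and 0 fell in moderate leaves, and 4 rose and 4 fell in severe leaves, beside 17.1% and 66.5% of all tested genes called. Sobic.004G046100 rose to 23.8, 14.6 and 12.5 CPM in moderate libraries, against 3.33, 1.12 and 1.62 CPM in control (log2 change 3.06, SE 1.02, edgeR adjusted p = 0.0247), a call lost without any 1 control or moderate library (adjusted p = 0.0525 to 0.0975). Sobic.003G437200 had 1 count in severe and 296 counts in control libraries, or 0.00424 times the control level, for which counting error alone allowed 1.07e-04 to 0.0238 times at 95% confidence (edgeR adjusted p = 6.01e-05).

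**Figure D5:**
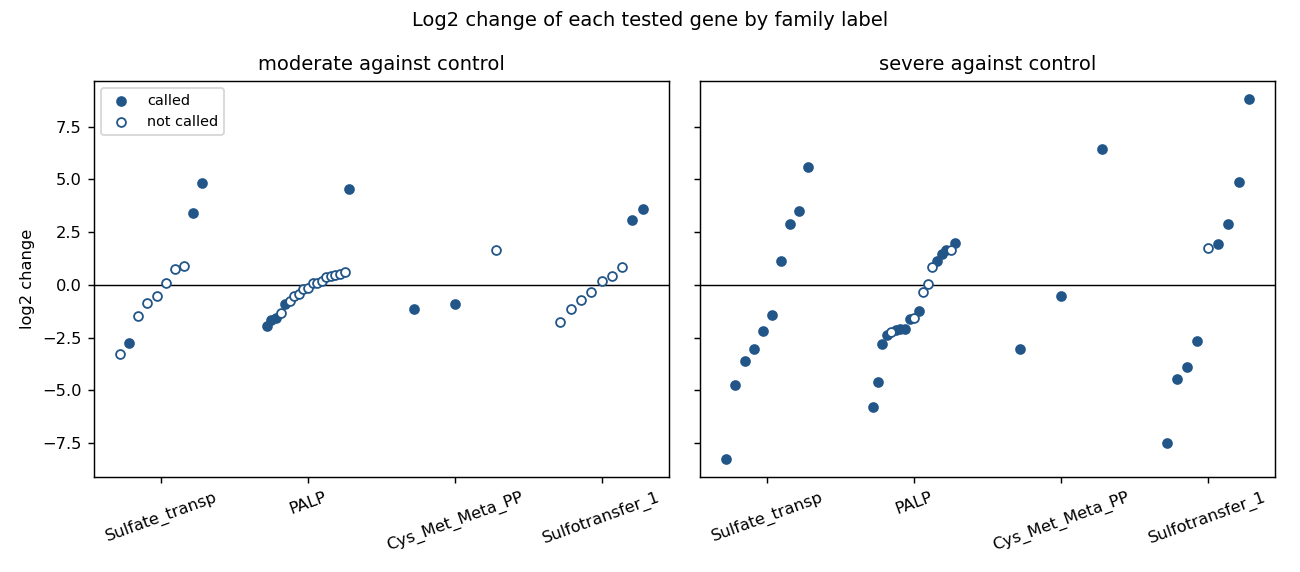
Log2 change of each tested gene carrying the labels Sulfate_transp, PALP, Cys_Met_Meta_PP or Sulfotransfer_1, in moderate against control (left) and severe against control (right); filled points passed edgeR's test. The 10 sulfate transporters span 4.81 to -3.29 on the left and 5.58 to -8.24 on the right, and 19 PALP genes, 3 Cys_Met_Meta_PP genes and 9 Sulfotransfer_1 genes are shown beside them. The low end on the left, -3.29, is Sobic.001G244500, not called, at 2 counts in moderate against 17 in control.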

How the data were processed

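RNA from leaves was sequenced in 9 libraries. The submitters' processing notes name HISAT2 2.0.5 and DESeq2 1.20.0. The sources used here do not give the read counter, the genome build or annotation, or whether counting used strand. Raw counts per gene, deposited without normalisation, were used for all tests. FPKM deposited by the authors equals count over listed gene length times a library constant, which implies 0.444 to 1.46 times the library's total count. The authors' deposited log2 fold changes and adjusted p-values served only for the number of members that table calls. The gene length column, deposited by the authors, equals the genomic span for 34397 genes.

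Tests used edgeR 4.0.16 in R 4.3.3 (filterByExpr by group, TMM, quasi-likelihood F-test, 2-sided, 1 mean per group, all 9 libraries), with Benjamini-Hochberg adjustment over 22356 genes and a threshold of 0.05. Each SE was derived from the log2 change and its p, through the normal quantile for that p. All 10 members met the filter, 6 of them in every library of each group. Alternatives used DESeq2 1.42.0, limma 3.58.1, other scalings, no filter, fewer libraries and a replicate block. The procedure was tested on simulated data in which each gene varied alike in all groups and few genes changed. That test does not cover the wider spread of the severe libraries or the many genes called there. Intervals and floors cover counting error only, and replicates of a group differed beyond counting noise in each pair (chi-square per degree of freedom 18.9 to 339). The members, lists and naming rule (every member, and per pathway family the gene of lowest adjusted p for moderate and for severe against control) were chosen with earlier results of these data known.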

Additional observations from a re-analysis of the deposited data

How the results depend on the processing

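Of 479 recomputed log2 changes of single transporters, 444 kept direction and side of the threshold, 18 passed newly, 16 no longer passed, and 1, the moderate change of Sobic.001G496800, turned to -0.23 without control replicate 3 (-0.23 to 0.32 leaving out 1 library); the cause was not tested. All 10 severe changes against control kept their direction in all alternatives run. The number of transporters called in moderate leaves was 5 by DESeq2, 8 of 9 with only moderate and control libraries, 6 by limma on log2(FPKM + 1), and 2 to 7 leaving out 1 library. The 9 pathway genes called there became 4 with total-count scaling, 17 with only those libraries, and 1 to 12 leaving out 1 library. The 3825 genes called there became 6191 by DESeq2, 9503 with only those libraries, and 1488 to 7368 leaving out 1 library. Fits with 2 libraries in a group assume that they vary like the others. With total-count scaling the called genes split into 3707 higher and 704 lower in moderate against control (1998 and 1827 with TMM) and 3729 and 10094 in severe against moderate (6624 and 7506). Leaving out 1 library, 9 to 10 transporters were called in severe against control and 7 to 9 in severe against moderate. In that order these fits called 13278 to 15289 and 11982 to 14584 of all genes, with 22872 to 23099 tested. DESeq2's size factors moved the median severe change by 0.10.

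Replicate numbers are shared between groups by label, but the sources used here do not say that they pair samples, so they were not taken to. Same-numbered libraries deviated together with correlations of -0.036 to 0.258, and differently numbered ones with -0.251 to 0.118. Whether the numbers share a source of variation was not tested. With replicate number as a block, the transporters called numbered 3 in moderate and 10 in severe leaves against control, and 9 between severe and moderate, the same numbers as without it. In that order the block fit called 3533, 14606 and 13915 genes, and 6, 25 and 17 pathway genes. Not every library correlated best with its own number. Levels per coding length were not run.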

Other observations

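The label Na_sulph_symp, a family of sodium-coupled carriers of sulfate and dicarboxylates whose plant members include a vacuolar malate transporter in Arabidopsis, was looked at after the values of the sulfate transporters were seen. Of 7 genes tested, 1 rose and 2 fell in moderate leaves, and 3 rose and 3 fell in severe leaves against control, where 17.1% and 66.5% of all tested genes were called. Sobic.002G245400, the gene with the highest severe mean, read 2695, 415 and 118 CPM in severe and 2.22, 3.80 and 5.05 CPM in control libraries, a log2 rise of 8.18 (SE 2.06, edgeR adjusted p = 3.87e-04). Without severe replicate 1 its severe mean was 267 CPM in place of 1076 CPM, and the log2 rise was 6.16 (edgeR adjusted p = 6.52e-05). Sobic.008G112300, the gene with the highest control mean, averaged 6.69 ± 5.14 CPM in severe and 638 ± 79.9 CPM in control leaves, a log2 change of -6.56 (SE 1.55, edgeR adjusted p = 1.95e-04). The label does not tell which ion a member carries.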
